A study of Mus musculus with 2 samples.

Results

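The genes described here encode 10 molecules by which a presenting cell stimulates or restrains T cells: Cd80, Cd86, Cd274, Pdcd1lg2, Icosl, Cd276, Vsir, Cd83, Cd40 and Tnfsf9. They were chosen by name from the table of reads per gene, and all 10 of 10 were found among its 48795 genes. The RNA came from macrophages of the kidneys of C57BL/6 wild-type mice aged 8 weeks, sorted by flow cytometry into a CD11c+ population, R2a, and a CD11c- population, R2b. The RNA of 6 to 8 mice was pooled for each population, so each population gave 1 library, variation among mice is unknown, and no difference has a replicate check. In pooled RNA, a different level per cell and a different share of the cells that carry a transcript cannot be told apart.

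A T cell that recognises a peptide on a major histocompatibility complex molecule needs a further signal from the presenting cell to become fully active. CD80 and CD86 give that signal through CD28, and the same ligands bind CTLA-4, which restrains the T cell. Other proteins related to them act through their own receptors: PD-L1 and PD-L2 through PD-1, and the ICOS ligand through ICOS. A further family, related to tumour necrosis factor, includes 4-1BBL, the ligand encoded by Tnfsf9, and the receptor CD40, through which a T cell activates the presenting cell. Macrophages that reside in tissues carry class II molecules and several of these ligands.

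Reads on genes numbered 11811923 for R2a and 23915896 for R2b. All 10 macrophage markers examined, among them Adgre1, Csf1r and C1qa, were present, at 47.0 to 2533 CPM in R2a and 61.7 to 3400 CPM in R2b. CPM is the number of reads scaled to a common library total. T cell markers summed to 7.002 CPM in R2a and 11.8 CPM in R2b over 12 genes. B cell markers summed to 221 and 220 CPM over 11 genes, of which Ighm made up 177 and 167 CPM. Markers of classical dendritic cells, which carry CD11c and many of the same ligands, summed to 166 CPM in R2a and 101 CPM in R2b over 10 genes. Of these sums Dpp4 made up 65.3 and 24.8 CPM. Under the 2-fold rule set out below, 3 of the 9 compared were higher in R2a, Dpp4, Xcr1 and Cd207. The other 6 were not called, and 1.93% of all genes compared were called higher. Monocyte markers summed to 292 and 44.99 CPM over 8 genes, mostly Ccr2 at 267 and 29.7 CPM. The part of these cells in the levels of the ligand genes was not tested. The receptors of the ligands on T cells were near 0. Cd28 had 4 reads in R2a and 14 in R2b, Icos 5 and 9, and Pdcd1, which encodes PD-1, 0 and 11. Ctla4 and Tnfrsf9, the receptor of 4-1BBL, each had 0 and 4 reads, and Cd40lg had 1 and 0. None of these 6 genes reached 1 CPM in either library.

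One ligand gene, Tnfsf9, was lower in R2a than in R2b by the 2-fold rule, and none was higher. Called genes met 3 conditions: a level of 1 CPM or more in the higher library, a log2 ratio, taken after adding 0.5 CPM to each library, of at least 1 in size, and an exact 95% interval of the fold that did not include 1. With 1 library per population, the intervals cover counting error only. Reads copied by PCR are not independent molecules, so the intervals may be too narrow even for that. Pdcd1lg2 was under 1 CPM in both libraries and was not compared, so 1 of 9 ligand genes was called. Among all 15603 genes compared, 3.77% were called, 1.93% higher and 1.84% lower in R2a. For the 9 ligand genes the median log2 ratio was -0.10, beside -0.01 over all genes compared, and 3 of the 9 lay above 0. With total-count scaling, which moved the median of all genes to 0.07, the ligand median was -0.03 and 4 of the 9 lay above 0.

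The levels of the ligand genes spanned nearly the whole range of the transcriptome, and their order was similar in both libraries. Cd83, Vsir, Cd86 and Icosl were abundant, and the other 6 genes were at low to moderate levels. To set genes of different length side by side, CPM was divided by the length of the annotated exons in kilobases. On this scale Cd83 stood at 202 in R2a and 296 in R2b, above 99.4% and 99.6% of the 12664 protein-coding genes compared. Vsir stood at 131 and 140, Cd86 at 74.2 and 74.9, and Icosl at 33.04 and 30.4. Cd83, Vsir and Cd86 made up 43.6%, 28.2% and 16.05% of the summed level per kilobase of the 10 genes in R2a, and 51.5%, 24.4% and 13.01% in R2b. At the other end Pdcd1lg2 stood at 0.378 in R2a (0.173 to 0.718) and 0.0657 in R2b (0.0136 to 0.192), where the intervals are exact 95% Poisson intervals.

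The middle of the order differed between the libraries. In R2a the fifth place belonged to Cd276 at 6.91 CPM per kilobase (6.16 to 7.73), followed by Tnfsf9 at 4.79 (3.77 to 6.00), Cd40 at 4.67 (4.03 to 5.38) and Cd274 at 4.23 (3.64 to 4.88). The intervals of the last 3 overlapped, so their order was not resolved at this depth. In R2b the fifth place belonged to Tnfsf9 at 17.6 (16.1 to 19.1), well above Cd40 at 5.06 (4.58 to 5.58) and Cd276 at 4.45 (4.02 to 4.92), whose intervals overlapped. Cd274 at 3.43 (3.04 to 3.85) and Cd80 at 3.21 (2.85 to 3.62) came next in R2b and were likewise not resolved. In R2a Cd80 stood apart from Cd274, at 1.89 (1.51 to 2.34). Tnfsf9 therefore lay above 53.3% of the protein-coding genes in R2a and above 86.2% in R2b, while Cd86 lay above 97.6% in each.

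**Figure D1:**
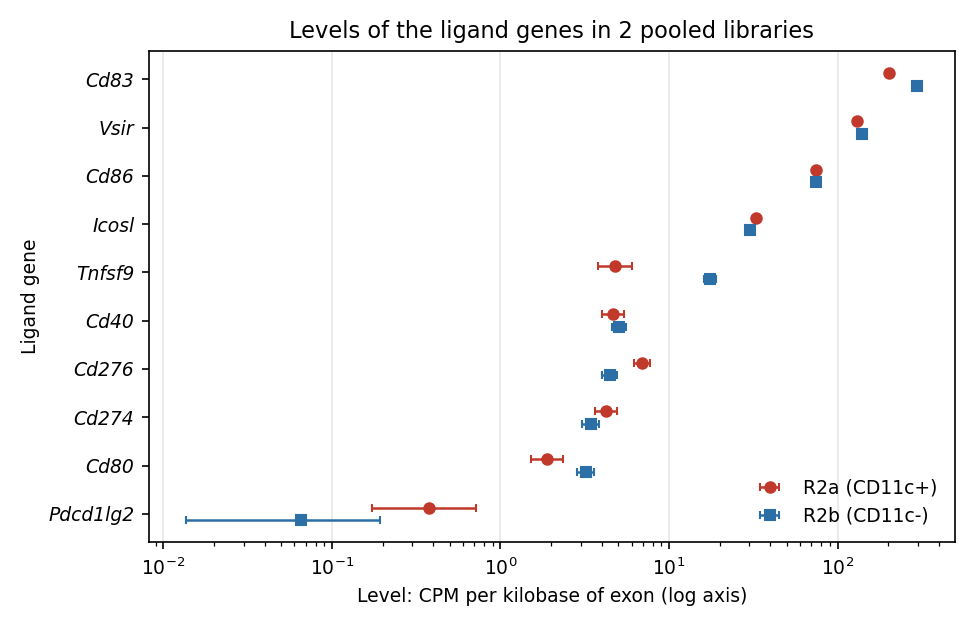
Level of each of the 10 ligand genes in CPM per kilobase of exon (log axis) in R2a (circles) and R2b (squares), with exact 95% Poisson intervals that cover counting error only. Cd83 is at the top in both libraries, at 202 and 296, Pdcd1lg2 is at the bottom, and the largest gap between the libraries among the genes over 1 CPM is that of Tnfsf9, at 4.79 and 17.6.

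Tnfsf9 (ENSMUSG00000035678.7, GRCm38 chromosome 17, 57105325 to 57107757, plus strand) encodes 4-1BBL, which stimulates activated T cells through 4-1BB. It had 75 reads in R2a and 527 in R2b, or 6.18 CPM and 22.6 CPM. It was 3.67 times lower in R2a (2.87 to 4.73), with a log2 ratio of -1.79, the 27th lowest of the 15603 genes compared. Its log2 ratio stayed between -1.86 and -1.59 under the other scalings, added values and depth tried, and it was called under each of them. Its place from the lowest ratio ranged from 12 to 93 over the alternatives, the latter with 0.1 CPM added. A 4-fold rule did not call it. The partly overlapping noncoding gene Gm11110 on the other strand had 15 and 44 reads, and adding these to Tnfsf9 gave a log2 ratio of -1.66. The next protein-coding gene on one side, Cd70, another costimulatory ligand of the same family, had 0 reads in both libraries. The neighbour on the other side, the tubulin gene Tubb4a, had 22 and 70 reads and a log2 ratio of -0.60.

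CD40 (Cd40, ENSMUSG00000017652.16, chromosome 2, 165055627 to 165072948, plus strand), the other member of the tumour necrosis factor group, had 193 reads in R2a and 401 in R2b. That was 15.9 and 17.2 CPM, a fold of 0.923 (0.773 to 1.10) whose interval includes 1. Set against Cd40 within the same library, Tnfsf9 had 38.9 reads per 100 Cd40 reads in R2a and 131 in R2b. The ratio of these, which does not depend on how the libraries are scaled, was 3.38 times lower in R2a (2.49 to 4.61).

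Immediate-early genes, which cells switch on within minutes of a stimulus, including tissue digestion, were examined in the same libraries. All 16 members of this list had log2 ratios below 0, with a median of -0.84, and 4 were called lower in R2a. These were Fosl2 at -1.54, Fosb at -1.33, Egr2 at -1.27 and Fos at -1.02, all of which encode transcription factors. Among all 15603 genes compared, 7929 lay below 0 and 1.84% were called lower. The 10 macrophage markers also all lay below 0, with a median of -0.20, and none was called. With total-count scaling Fos, at -0.94, was not called. The summed level of the immediate-early genes was 5992 CPM in R2a and 10805 CPM in R2b. Their part in the values of Tnfsf9, Cd83 and Cd80 was not tested.

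**Figure D2:**
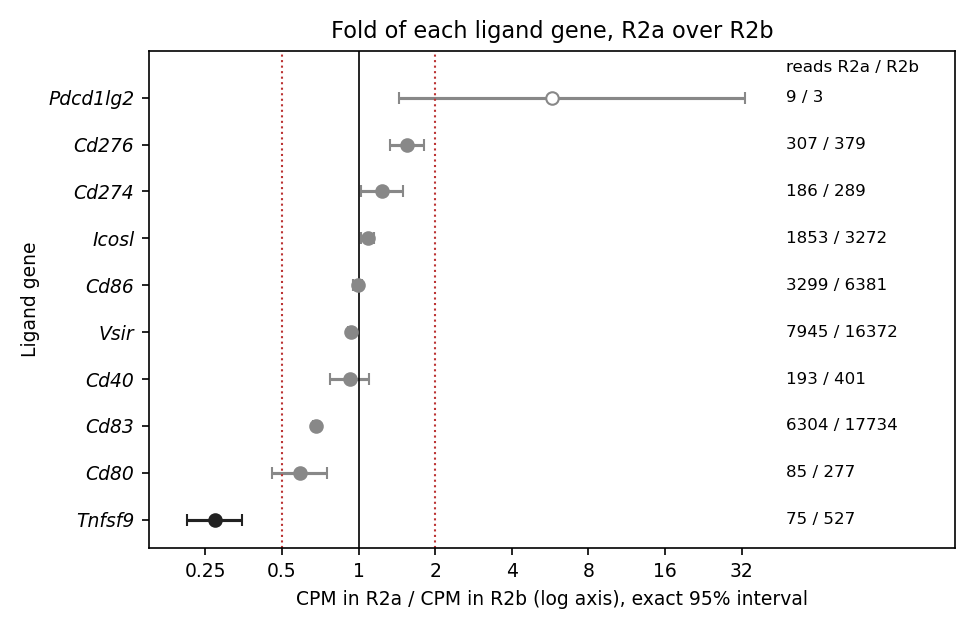
Fold of each ligand gene, CPM in R2a over CPM in R2b (log axis), with exact 95% intervals and the reads behind it; dotted lines mark 2-fold, the black point is the gene called, and the open point is Pdcd1lg2, which was not compared. Tnfsf9 lies at 0.273, Cd86 at 0.991 and Cd276 at 1.55, and the interval of Pdcd1lg2 runs from 1.44 to 33.03.

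Neither ligand of CD28 and CTLA-4 was called, and their ratios were unlike. Cd86 (ENSMUSG00000022901.13, chromosome 16, 36603869 to 36666081, minus strand) had 3299 reads in R2a and 6381 in R2b, or 272 and 274 CPM. Its fold was 0.991 (0.9501 to 1.03), an interval that includes 1. Its log2 ratio of -0.01 turned to 0.07 with total-count scaling. Cd80 (ENSMUSG00000075122.4, chromosome 16, 38455561 to 38496335, plus strand) had 85 reads in R2a and 277 in R2b, or 7.002 and 11.9 CPM. It was 1.70 times lower in R2a (1.33 to 2.19), with a log2 ratio of -0.73 that did not reach the 2-fold rule.

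Per 100 reads of Cd86 there were 2.58 reads of Cd80 in R2a and 4.34 in R2b. This within-library ratio was 1.68 times lower in R2a (1.31 to 2.182). Cd86 was by far the more abundant of the pair in both libraries, at 74.2 against 1.89 CPM per kilobase in R2a and 74.9 against 3.21 in R2b. Of the protein-coding genes that flank Cd80, Adprh had a log2 ratio of -0.14 and Timmdc1 of -0.09. Those that flank Cd86, Casr and Ildr1, had log2 ratios of -0.23 and -0.51.

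Of the 10 genes, 6 had a promoter window in RefSeq (GRCm38.p6), 250 bases before to 50 bases after a transcript start. The other genes were Cd86, Cd83, Cd40 and Tnfsf9. The window of Cd80 (chr16:38458683-38458982, plus strand) is shown because it alone of the 6 held a match to a motif searched. The motifs, on both strands, were the AP-1 pattern TGANTCA, the interferon-gamma site TTCNNNGAA, a kappaB site bound by NF-kB, and the TATA box TATAAA. Any base was accepted at N, so an AP-1 match need not be a site that the Fos and Jun proteins bind. In the Cd80 match that base is T. Capitals mark the AP-1 match, whose first base lies 42 bases before the start, and a TATA box match on the minus strand from base 5 after it. The RefSeq start lies inside the span of Cd80 in the annotation used for its position.
Cd80 promoter: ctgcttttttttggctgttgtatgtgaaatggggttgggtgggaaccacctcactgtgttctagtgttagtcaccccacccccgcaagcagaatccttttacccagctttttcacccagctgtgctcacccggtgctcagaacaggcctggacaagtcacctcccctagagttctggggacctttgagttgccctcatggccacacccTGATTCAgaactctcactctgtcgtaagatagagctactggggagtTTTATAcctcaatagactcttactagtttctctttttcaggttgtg

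Over all 32851 promoter windows of the same length, the AP-1 letters were found in 7.81% and the TATA box letters in 13.6%. The interferon-gamma letters were found in 8.30% and the kappaB letters in 0.411%. A match describes the letters only and shows no binding.

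The PD-1 ligands lie next to each other on chromosome 19, 22.8 kb apart, and both were at the low end of the 10 genes. Cd274 (ENSMUSG00000016496.7, 29367455 to 29388095, plus strand) encodes PD-L1, an inhibitory ligand that many cell types make, and had 186 reads in R2a and 289 in R2b. That was 15.3 and 12.4 CPM, a fold of 1.23 (1.02 to 1.49) and a log2 ratio of 0.29. In a single random thinning of R2b to the depth of R2a, which has sampling error of its own, the log2 ratio was 0.08. Pdcd1lg2 (ENSMUSG00000016498.9, 29410919 to 29471161, plus strand) encodes PD-L2, which is typically found on dendritic cells and macrophages, and had 9 reads in R2a and 3 in R2b.

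The 12 reads of Pdcd1lg2 gave 0.741 and 0.129 CPM, a ratio of 5.75 (1.44 to 33.03), where 3 reads correspond to 0.247 CPM in R2a and 0.129 CPM in R2b. A noncoding gene on the other strand that overlaps its end, A930007I19Rik, had 21 and 66 reads, and with these added the log2 ratio went from 0.98 to -0.22. Relative to Cd274 in the same library, Pdcd1lg2 had 4.84 reads per 100 in R2a and 1.04 in R2b. The ratio of these was 4.65 (1.14 to 27.0), and with R2b thinned it was 8.05 (1.10 to 356). The protein-coding genes on the outer sides of the pair, Plgrkt and Ric1, had log2 ratios of 0.41 and 0.20.

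The promoter windows of this pair are shown because the neighbours differ in level. Per kilobase, Cd274 stood at 4.23 in R2a against 0.378 for Pdcd1lg2. Neither window (chr19:29367188-29367487 and chr19:29410669-29410968, both plus strand, GRCm38.p6) held a match to the 4 motifs, so no letters are in capitals, and this says only that these letters are not in these windows. The windows differed in CG pairs, with 15 in that of Cd274 and 3 in that of Pdcd1lg2.
Cd274 promoter: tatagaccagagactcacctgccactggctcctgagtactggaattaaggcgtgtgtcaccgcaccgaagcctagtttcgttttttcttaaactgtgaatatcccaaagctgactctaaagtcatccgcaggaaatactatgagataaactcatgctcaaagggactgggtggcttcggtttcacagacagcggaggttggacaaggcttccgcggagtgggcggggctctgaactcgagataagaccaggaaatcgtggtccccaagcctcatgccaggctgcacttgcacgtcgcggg
Pdcd1lg2 promoter: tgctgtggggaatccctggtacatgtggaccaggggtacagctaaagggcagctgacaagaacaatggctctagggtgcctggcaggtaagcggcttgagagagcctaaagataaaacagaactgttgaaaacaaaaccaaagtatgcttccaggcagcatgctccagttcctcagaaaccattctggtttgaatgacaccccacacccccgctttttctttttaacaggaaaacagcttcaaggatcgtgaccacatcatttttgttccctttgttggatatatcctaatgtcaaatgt

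Among the 6 windows, those of Cd80 and Pdcd1lg2 held 3 CG pairs each, fewer than the median of 7 over all windows. Those of Vsir, Icosl and Cd276 held 15, 26 and 39.

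The other B7-related genes were Icosl, Cd276 and Vsir. Icosl (ENSMUSG00000000732.8, chromosome 10, 78069302 to 78083913, plus strand) encodes the ligand of ICOS, which supports helper T cells. It had 1853 reads in R2a and 3272 in R2b, or 153 and 141 CPM, a fold of 1.09 (1.03 to 1.15). Vsir (ENSMUSG00000020101.14, chromosome 10, 60346851 to 60372684, plus strand) encodes VISTA, an inhibitory molecule common on myeloid cells. It had 7945 reads in R2a and 16372 in R2b, or 655 and 703 CPM, a fold of 0.930 (0.906 to 0.956). These genes were close to level in the libraries, with log2 ratios of 0.12 and -0.10.

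Vsir lies within the span of the cadherin gene Cdh23, on the other strand. Cdh23 had 271 and 658 reads, few beside those of Vsir. No source used here states whether the counting took strand into account, so reads of such overlapping genes may not be separated.

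Cd276 (ENSMUSG00000035914.10, chromosome 9, 58524298 to 58555437, minus strand) encodes B7-H3, which has been described both as a stimulator and as an inhibitor of T cells and is made by many non-immune cells. It had 307 reads in R2a and 379 in R2b, or 25.3 and 16.3 CPM. Its fold was 1.55 (1.33 to 1.81), the highest of the 9 ligand genes compared, with a log2 ratio of 0.62. Podocyte markers summed to 284 CPM in R2a and 250 CPM in R2b over 6 genes, of which Ptpro made up 186 and 191 CPM. Endothelial markers summed to 119 and 90.5 CPM over 10 genes, of which Eng made up 59.4 and 46.0 CPM. Each of these lists had 2 genes higher in R2a and 0 lower. Fibroblast markers summed to 13.8 and 24.8 CPM over 7 genes, with 3 lower, and proximal tubule markers to 2279 and 2428 CPM over 10, with none called. Among all genes compared, 1.93% were called higher and 1.84% lower. The part of these cell types in the level of Cd276 was not tested.

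Cd83 (ENSMUSG00000015396.3, chromosome 13, 43784775 to 43803132, plus strand) encodes a membrane protein known as a marker of mature dendritic cells. It keeps class II molecules and CD86 on the cell surface by opposing the ubiquitin ligase MARCH1. It had 6304 reads in R2a and 17734 in R2b, or 519 and 762 CPM, and was 1.47 times lower in R2a (1.43 to 1.51). Its log2 ratio of -0.55 was lower than that of all but 7.43% of the genes compared and did not reach the 2-fold rule. Per 100 reads of Cd86 there were 191 reads of Cd83 in R2a and 278 in R2b, a ratio 1.45 times lower in R2a (1.38 to 1.53).

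The other markers of mature dendritic cells were scarce. The 8 genes summed to 10.4 CPM in R2a and 13.3 CPM in R2b, and Lamp3 had 0 reads in both libraries. The most abundant of the 8 was Fscn1, for which 59 reads were counted in R2a and 188 in R2b. Its log2 ratio, -0.68, fell short of the 2-fold rule. Ccr7, the receptor that guides such cells to lymph nodes, had 14 and 28 reads, and the chemokine gene Ccl22 had 25 and 0. Of the 4 genes compared, Ccl22 was called higher in R2a, beside 1.93% of all genes compared. The other 3 lay below 0 without being called. The part of such cells in the level of Cd83 was not tested.

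The other within-library ratios were also taken against Cd86. The ratio of Icosl to Cd86 was 1.10 (1.02 to 1.18) and that of Vsir to Cd86 was 0.939 (0.893 to 0.987). That of Cd276 to Cd86 was 1.57 (1.34 to 1.84). All 7 ratios of this kind had intervals that did not include 1, but the interval of Vsir to Cd86 did include 1 when R2b was thinned to the depth of R2a.

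**Figure D3:**
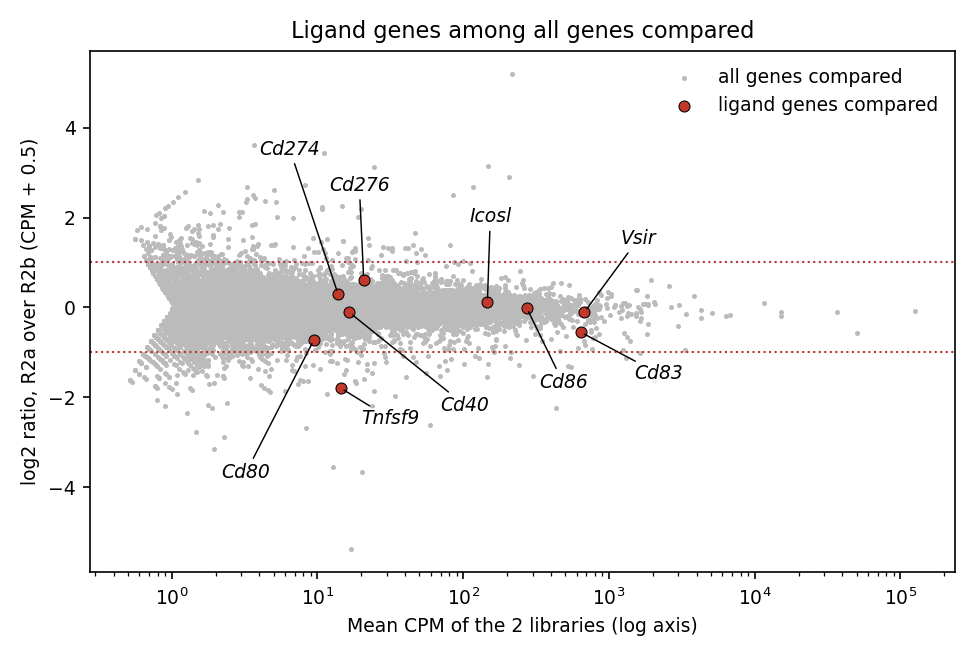
Log2 ratio of CPM plus 0.5, R2a over R2b, against the mean CPM of the libraries (log axis) for the 15603 genes compared (grey) and the 9 ligand genes among them (red, named); dotted lines mark 2-fold. Tnfsf9, at -1.79, lies outside the lines, and the other 8 lie between -0.73 and 0.62.

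By a 1.5-fold rule in place of the 2-fold one, Cd276 was also called higher and Cd80 also called lower in R2a. Among all genes compared, that rule called 5.57% higher and 5.79% lower. Cd83, with its log2 ratio of -0.55, lay just short of it.

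Other genes of the same pathways were examined as lists. Of 24 further ligands for T cells, 15 were compared, of which 1 was called in each direction by the 2-fold rule. Their median log2 ratio was -0.02, which turned to 0.06 with total-count scaling. Over all genes compared, the 2-fold rule called 1.93% higher and 1.84% lower in R2a. Sema4a, a semaphorin that stimulates T cells, had 156 CPM in R2a and 224 CPM in R2b, and its log2 ratio was -0.52. Lgals3, which encodes galectin-3, had 25.8 and 18.3 CPM and a log2 ratio of 0.48. The called members had few reads and are named after their values were seen. Tnfsf8, the ligand of CD30, had 32 reads in R2a against 9 in R2b, a fold of 6.82 (3.18 to 16.2). The butyrophilin gene Btn2a2 had 0 and 24 reads. With 2 CPM added neither was called, and with R2b thinned Btn2a2 was not called.

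Of 18 soluble or enzymatic regulators of T cells, 10 were compared, and 2 of these were higher in R2a by the 2-fold rule. Their median log2 ratio was 0.28, and none was lower. The same rule called 1.93% of all genes compared higher and 1.84% lower. Cxcl9, a chemokine induced by interferon gamma that attracts T cells, stood at 54.5 CPM against 26.3 CPM in R2b, a fold of 2.08 (1.86 to 2.32). With R2b thinned to the depth of R2a it was no longer called, at a log2 ratio of 0.998. The other was Il12b, named after its values were seen, a subunit of the cytokine IL-12, with 26 and 16 reads and a fold of 3.12 (1.61 to 6.22). With 2 CPM added it was not called, at a log2 ratio of 0.62. Ido1, which encodes an enzyme that starves T cells of tryptophan, had 0 reads in both libraries.

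None of the listed signalling genes that act below CD40 and above Cd274 reached the 2-fold rule. Of 19 genes of CD40 and NF-kB signalling, all compared, none was called, and the median log2 ratio was 0.00, which became 0.08 with total-count scaling. The largest values were those of Tnfaip3, at -0.62, and Nfkbia, at -0.50, which encode inhibitors of the pathway that NF-kB itself induces. Tnfaip3 was 1.54 times lower in R2a (1.48 to 1.60) and Nfkbia 1.42 times lower (1.35 to 1.49). Of the 19 genes, 10 lay above 0 and 9 below. Of 10 genes of interferon gamma signalling none was called, with a median of -0.12 and the largest values at Ifngr2, -0.31, and Irf1, -0.25.

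Of 7 genes of ligand turnover and shedding none was called, and the median was 0.11. The ubiquitin ligase gene March8 had a log2 ratio of -0.31 and Cmtm6, whose protein protects PD-L1 from degradation, had -0.30. The flanking protein-coding genes of the 10 ligands, chosen by position alone, numbered 18, of which 12 were compared and none was called, with a median log2 ratio of -0.08.

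**Figure D4:**
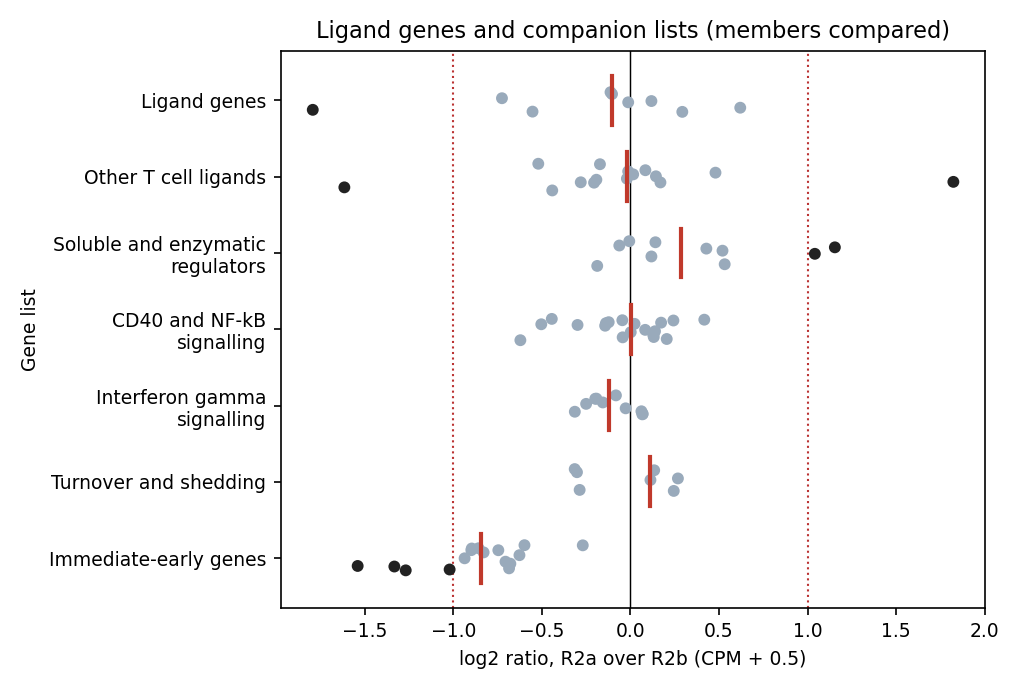
Log2 ratio of CPM plus 0.5, R2a over R2b, of each gene compared in the ligand list and in 6 of the companion lists; black points were called by the 2-fold rule, red bars are list medians, points are spread vertically for legibility, and dotted lines mark 2-fold. The receptors on T cells are not drawn because none reached 1 CPM, and all 16 immediate-early genes lie below 0.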

How the data were processed

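RNA of sorted kidney macrophages, pooled from 6 to 8 mice, was sequenced in 1 library for R2a and 1 for R2b, as paired reads of 75 bases after ribosomal RNA reduction, per the labels' protocols. The deposited values are raw counts of reads per gene. Per the submitters' processing notes, the authors used bcl2fastq 2.18.0.12, STAR 2.5.3, the build GRCm38 and HTSeq 0.9.1. No source used here names the annotation release, the count mode or the strand setting. The 5 summary rows of the counter were left out of library sizes: reads on genes were 47.9% of everything counted for R2a, and 50.3% for R2b. Of 48795 gene identifiers 48435 matched GENCODE M21 (GRCm38) without the version and 41427 with it, and the identifiers of 4 of the 10 ligand genes matched with the version, so exon lengths may differ from those the authors counted on.

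Counts were scaled with TMM (edgeR 4.0.16, R 4.3.3). Folds are ratios of CPM with exact 95% Clopper-Pearson intervals on the split of a gene's reads between libraries (scipy 1.17.1), and ratios of paired genes are conditional odds ratios with exact intervals. With 1 library per group no p-value is given, and the calls compare these libraries, not the populations. The call rule was tested on simulated data. All 10 ligand genes are named, together with all receptors on T cells. From each other companion list up to 4 called genes with at least 5 CPM are named, or else the 2 with the largest log2 ratios. Cell type markers were used as sums, counts and ranges. Markers given singly, and Ido1, lie outside the naming rule above and were named with their values known. The ligand genes and the lists were chosen with earlier results of these data known. Promoter windows came from RefSeq (GRCm38.p6). Alternatives were other scalings (DESeq2 1.42.0 among them), added values, CPM minimums, fold rules and a single random thinning of R2b. Thinned values therefore carry the sampling error of that draw.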

Additional observations from a re-analysis of the deposited data

Results flagged for a closer look

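Groups of 1 library allow no search for outlying samples. The counter's summary rows held signal that no gene comparison used, above the 3 reads that a count of 0 allows. In R2a, 41.2% of everything counted was assigned to no annotated gene, and in R2b 38.9% was. Without the strand setting and annotation release, it is not known whether all of it lay outside exons. Reads that touched more than 1 gene came to 2.42% for R2a and 2.51% for R2b. Multiply aligned reads came to 8.50% and 8.33%. Any reads of the ligand genes in these classes are not in their counts.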

How the results depend on the processing

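Of 190 recomputed values, 169 were counted as unchanged, by criteria that differed among results. A called gene had to keep its call, and a gene not called had to stay so, within its counting interval. Ratios of paired genes had to keep their direction and whether their interval included 1. Counts of genes, and of genes at their place in the order of levels, could differ up to 1.5-fold. List medians could move by less than the standard deviation of their members. The median of the further ligands, which turned from -0.02 to 0.06, therefore counted as unchanged. Total-count scaling moved the log2 ratios of Cd86 to 0.0659, Vsir to -0.0254 and Cd83 to -0.47, each outside its counting interval. That of Pdcd1lg2 was 0.36 with 2 CPM added, -0.22 with the reads of its overlapping gene, an alternative chosen after seeing the data, and 1.18 with scaling on protein-coding genes without mitochondrial and ribosomal protein genes, where it was the 1 ligand gene called higher, since its level in R2a was then 1.05 CPM and its log2 ratio also passed 1. A 1.5-fold rule called 1 ligand gene higher and 2 lower, and a 4-fold rule called 0 lower. The ratio of Vsir to Cd86 was 0.957 with R2b thinned, an addition made after seeing the data, and its interval then included 1. Over all genes, against 301 higher and 287 lower, 0.1 CPM added gave 493 and 462, 2 CPM added 82 and 78, a CPM minimum of 5 gave 92 and 97, the 1.5-fold threshold gave 869 and 903, and the 4-fold threshold 41 and 16. With the longest transcript as gene length, Tnfsf9 and Cd40 exchanged places in the R2a order and Cd80 and Cd274 in the R2b order. Pdcd1lg2, with 12 reads, is limited by depth. No paired analysis was possible because each population had 1 library.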
